A study of Mus musculus with 38 samples.

Results

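The calcium/calmodulin-dependent kinase genes examined here were 10 of the 23420 genes counted in each library: the CaMKII subunit genes *Camk2a*, *Camk2b*, *Camk2d* and *Camk2g*, the kinase-like gene *Camkv*, *Camk4*, the CaMKI genes *Camk1* and *Camk1d*, and the upstream kinase genes *Camkk1* and *Camkk2*. The rule takes them by symbol as members of one kinase family and uses no measured value, but the family was picked with earlier results of these data known. All mice were adult C57BL/6J males carrying the *Arc*::dVenus reporter, in which the promoter of the activity-regulated gene *Arc* controls a short-lived fluorescent protein, dVenus. In every mouse, 10 fluorescent (dVenus+) and 10 neighboring non-fluorescent (dVenus-) dentate gyrus granule cells were aspirated from slices, and each pool gave 1 library. The fear conditioned mice (FC, n = 12) had received tone and shock pairings on the day before, the no-shock mice (NS, n = 4) the same exposure without the shock, and the home-cage mice (HC, n = 3) no training. The reporter carried by all 3 groups marks cells with recent *Arc* promoter activity, so the dVenus+ cells of NS and HC mice carried it without a shock.

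CaMKII is a large assembly of alpha, beta, gamma and delta subunits that is switched on by calcium-bound calmodulin and can keep itself active by autophosphorylation. In excitatory neurons the alpha and beta subunits predominate, and at the synapse the kinase acts on AMPA receptors and binds NMDA receptors during long-term potentiation. The CaMKK enzymes phosphorylate CaMKI and CaMKIV, and CaMKIV is a nuclear kinase known for phosphorylating the transcription factor CREB.

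Libraries held between 1352288 and 18394761 reads on genes, with medians of 7080448 in FC dVenus+ and 9955727 in FC dVenus- libraries. The FC mice came from 3 batches of sample identifiers and the NS and HC mice together from another, so levels of FC mice and of the other mice differ in training and batch alike, and the effects of training and batch on levels cannot be told apart. The main comparisons were made between the libraries of 1 mouse, which share a batch, but the comparison of these changes between FC and the other mice does not hold batch constant. In FC mice the summed level of 8 granule cell markers ran from 73.2 to 1357 CPM, counts scaled to a common library total, in dVenus+ and from 636 to 2495 in dVenus- libraries, with medians of 441 and 1147. Among these markers *Prox1*, the transcription factor that defines granule cells, had reads in every library and *Tdo2* had 0 reads in 19 of the 38 libraries. The 6 nuclear-retained RNAs, *Malat1* foremost, summed to medians of 34455 CPM in FC dVenus+ and 15957 in FC dVenus- libraries, and the 7 microglial markers to medians of 174 and 57.0. The part of these differences in the results below was not tested. Fewer cells of a type in a pool and less RNA per cell cannot be told apart in such libraries.

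On the RPKM scale, normalized CPM divided by kilobases of exon, which allows levels of different genes to be compared, *Camk2b* and *Camk2a* were the most abundant family members in FC dVenus- cells, with medians of 240 (range 171 to 397) and 217 (129 to 314). Their ranges overlapped widely. *Camkv*, which encodes a vesicle-associated protein with a kinase-like domain that lacks catalytic activity, followed with a median of 135 (96.2 to 181), ahead of *Camk2g* with 64.0 and *Camkk1* with 60.3. The remaining members had medians of 14.1 (*Camkk2*), 10.7 (*Camk1*), 8.65 (*Camk4*), 8.34 (*Camk1d*) and 0.00488 (*Camk2d*), and the ranges of these neighbors overlapped. The ranges of *Camkv* and *Camk2g*, and those of *Camkk1* and *Camkk2*, did not overlap in these libraries. In FC dVenus+ cells *Camkv* moved from the third to the fifth place, with a median of 11.6 (0.483 to 89.7) on the same scale. There its range overlapped those of its neighbors *Camkk1*, *Camk2g* and *Camk1d*.

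**Figure D1:**
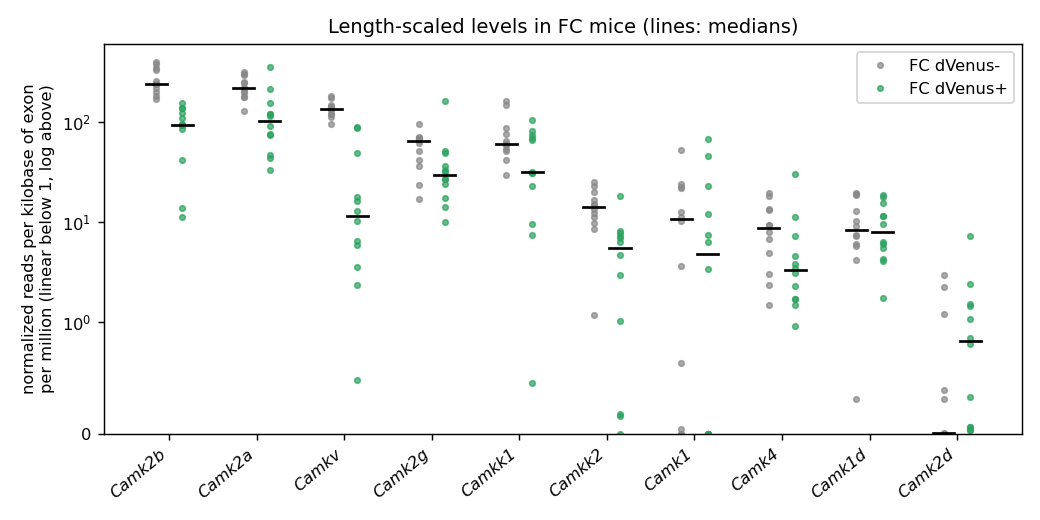
RPKM of the 10 genes in the FC libraries, ordered by the dVenus- median, with the axis linear below 1 and logarithmic above. Each point is 1 of 12 libraries per cell type and lines are medians. The cell types do not overlap for *Camkv*, with medians of 135 in dVenus- and 11.6 in dVenus+ cells, or for *Camk2b*, with 240 and 94.3.

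In FC mice *Camkv* and *Camk2b* were lower in dVenus+ than in dVenus- cells, in every mouse and without overlap between the cell types. By the quasi-likelihood test of edgeR, adjusted after Benjamini and Hochberg over the 9709 genes tested, these 2 of the 10 members were called (adjusted p under 0.05 and an absolute log2 fold change over 1), and 1.41% of all genes tested were called. Both fell. All 10 members passed the count filter, 9 had a fold change below 0 and their median log2 fold change was -1.15, beside -0.21 over all genes tested.

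Promoters were taken as 250 bases before to 50 after the start of a gene in RefSeq (GRCm38.p6), which for *Camkv* and *Camk2b* lies inside the gene positions from GENCODE given below. The full cAMP response element, TGACGTCA on either strand, was in 0 of the 8 promoter sequences found for 7 of the members and in 1.79% of 32851 mouse promoters. Its shorter form, TGACG on either strand and contained in the full one, was in 2 of the 8 (those of *Camk1* and *Camkk1*) and in 20.8% of all promoters.

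*Camkv* (chr9:107935674-107949691) had between 1.58 and 294 normalized CPM in the FC dVenus+ libraries, with a median of 38.1. The FC dVenus- libraries ran from 315 to 594 with a median of 443. The highest dVenus+ library therefore lay below the lowest dVenus- library. By the ratio of highest to lowest, the dVenus- libraries were much more alike than the dVenus+ libraries, while their SDs in CPM were 78.8 and 105. The log2 fold change was -3.51 ± 0.57 (SE, n = 12 mice, edgeR adjusted p = 0.00372), a level 11.4-fold lower in dVenus+ cells. The call held when any 1 FC mouse was left out.

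*Camk2b* (chr11:5969644-6066362), the beta subunit that binds actin and targets CaMKII to dendritic spines, had between 46.8 and 643 normalized CPM in FC dVenus+ libraries, with a median of 395. In FC dVenus- libraries it ran from 718 to 1664 with a median of 1006. Mice 05 and 14 were lowest, at 57.4 and 46.8 CPM in dVenus+ cells. The log2 fold change was -1.73 ± 0.37 (SE, n = 12 mice, edgeR adjusted p = 0.0218), 3.31-fold lower in dVenus+ cells. The call was lost without mouse 03 (adjusted p = 0.0621), whose dVenus+ library is the shallowest, and without mouse 12 (adjusted p = 0.0503), with log2 fold changes of -1.65 and -1.69.

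Among the 9709 genes, 106 (1.09%) were lower in dVenus+ cells in each of the 12 FC mice, and 3 (0.0309%) had every dVenus+ library below every dVenus- library. Those 3 were *Camk2b*, *Camkv* and *Tcf4*, which encodes a neuronal transcription factor and is named here after its values were seen.

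*Camk2a* (chr18:60925618-60988152), the alpha subunit and the form most studied in long-term potentiation, stood at the edge of the call. It had between 179 and 1914 normalized CPM in FC dVenus+ libraries (median 551) and between 691 and 1686 in FC dVenus- libraries (median 1164). It was lower in dVenus+ cells in 11 of 12 mice, and mouse 14 was the exception, with 1914 CPM in dVenus+ and 1098 in dVenus- cells. The log2 fold change was -1.16 ± 0.29 (SE, n = 12 mice), and the adjusted p of 0.0527 by edgeR's quasi-likelihood test missed the threshold. That verdict depended on the variant of the test: the adjusted p was 0.0148 with edgeR's newer quasi-likelihood method, 0.0387 with robust estimation and 0.0542 with dispersions estimated without the design, all 3 tried after the result was known, and 0.00616 with DESeq2. Without mouse 14 the edgeR adjusted p was 0.0224. Leaving out any other single FC mouse gave edgeR adjusted p from 0.0519 (mouse 10) to 0.124 (mouse 01), all above the threshold. The edgeR adjusted p was also 0.0513 with at least 20 counts, 0.0652 with the size factors of DESeq2 and 0.150 without the mouse as block.

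**Figure D2:**
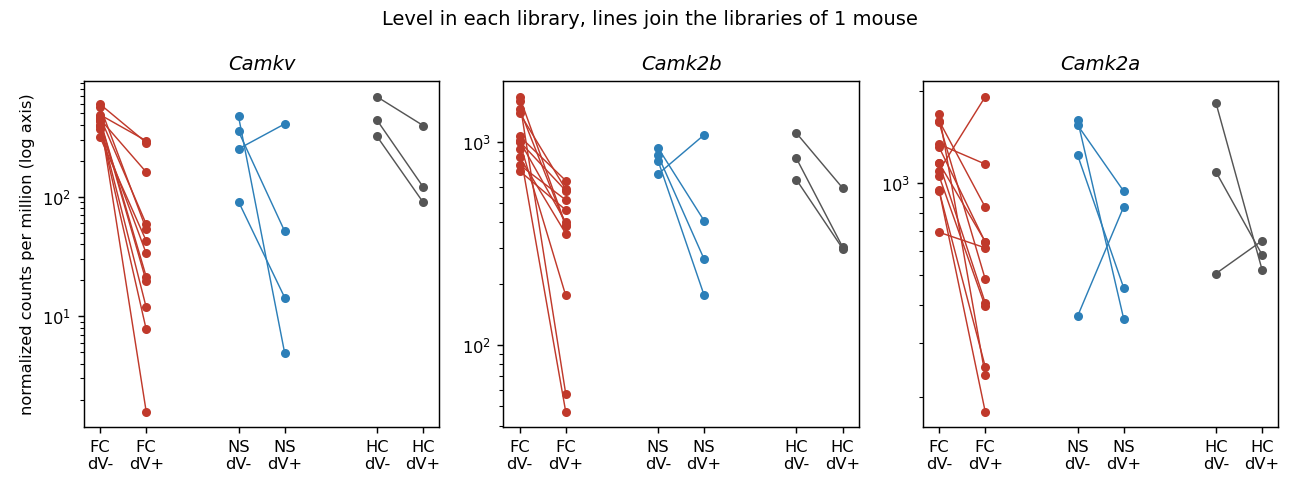
Normalized CPM on a log axis for *Camkv*, *Camk2b* and *Camk2a* in dVenus- (dV-) and dVenus+ (dV+) libraries, with lines joining the libraries of 1 mouse. In FC mice all 12 lines fall for *Camkv* and *Camk2b* and 11 of 12 for *Camk2a*.

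The other CaMKII subunit genes did not pass the test in FC mice. *Camk2g*, the gamma subunit, had a median of 108 normalized CPM in dVenus+ (37.3 to 595) and 237 in dVenus- libraries (63.1 to 353), with a log2 fold change of -0.71 ± 0.38 (SE, n = 12, edgeR adjusted p = 0.471). It was lower in dVenus+ cells in 10 of 12 mice and the cell types overlapped. *Camk2d*, the delta subunit and the main form of heart muscle, was near the limit of counting in FC mice. There it had 0 reads in 6 of 12 FC dVenus- libraries and at most 61.6 CPM in any FC library. It was higher in dVenus+ cells in 11 of 12 FC mice, with a fitted log2 fold change of 3.24 ± 1.32 and an edgeR adjusted p of 0.270. The fold change was 3.33 ± 1.02 with DESeq2 (adjusted p = 0.00996) and 1.71 ± 0.90 with edgeR's newer quasi-likelihood method. How far it depends on the libraries at 0 was not tested.

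Within CaMKII, *Camk2a* made up a median of 44.0% of the summed length-scaled level of the 4 subunit genes in FC dVenus+ libraries and 40.7% in FC dVenus- libraries. Its share ran from 20.0% to 85.0% in dVenus+ and only from 35.5% to 48.0% in dVenus- libraries. The extremes were mouse 14, where *Camk2b* was low and *Camk2a* high, and mouse 05, where *Camk2g* reached 595 CPM.

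The upstream kinases were not called in FC mice. *Camkk1*, which phosphorylates CaMKI and CaMKIV, had medians of 117 normalized CPM in dVenus+ (1.69 to 389) and 225 in dVenus- libraries (111 to 607), with a log2 fold change of -1.13 ± 0.51 (SE, n = 12, edgeR adjusted p = 0.341). *Camkk2*, its paralog that also phosphorylates AMPK, had medians of 26.9 (0 to 87.9) and 68.6 (5.77 to 124), with a log2 fold change of -2.21 ± 0.93 (adjusted p = 0.292 by edgeR). Both were lower in dVenus+ cells in 10 of 12 mice, and neither had separate ranges.

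*Camk4*, the nuclear kinase, had medians of 8.95 normalized CPM in dVenus+ (2.63 to 82.5) and 23.5 in dVenus- libraries (4.06 to 53.1) and a log2 fold change of -0.998 ± 0.77 (SE, n = 12, edgeR adjusted p = 0.660). *Camk1d* had nearly equal medians, 56.1 and 59.1 CPM, and a log2 fold change of -0.15 ± 0.57 (edgeR adjusted p = 0.959). *Camk1* was detected unevenly, with 0 reads in 5 of 12 dVenus+ and 2 of 12 dVenus- libraries and up to 101 CPM elsewhere, and its log2 fold change of -1.56 ± 2.88 carried little information (edgeR adjusted p = 0.904). Of the exon bases of *Camk1*, 4.34% overlap *Ogg1* on the other strand.

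**Figure D3:**
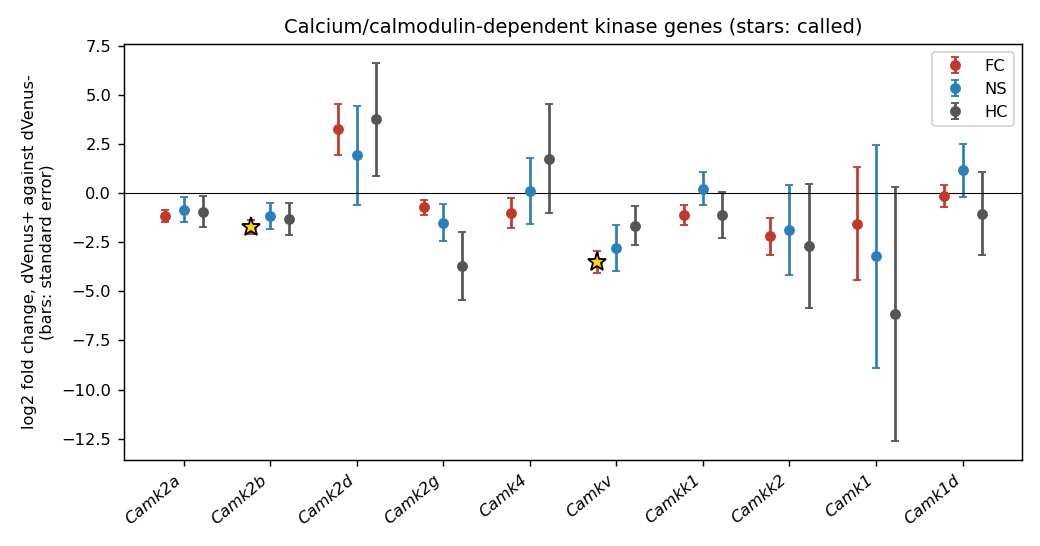
Log2 fold change of dVenus+ against dVenus- cells with its standard error for the 10 genes in FC (n = 12), NS (n = 4) and HC (n = 3) mice, with stars on called genes. The 2 stars are *Camk2b* at -1.73 and *Camkv* at -3.51 in FC mice, and the bars are longest for *Camk1*.

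Within the batches of FC mice the direction of *Camkv* and *Camk2b* was the same in every mouse. The log2 fold change of *Camkv* was -5.43 ± 1.08 in the 4 mice of batch I15-1287 and -2.17 ± 0.49 in the 6 mice of batch I15-1392, with unadjusted p of 2.1e-04 and 9.7e-04 by edgeR. For *Camk2b* these were -1.91 ± 0.71 and -1.75 ± 0.47. With so few mice no member was called within a batch, where edgeR called 3 genes in all in I15-1287 and 0 in I15-1392. The other 2 FC mice, of the remaining batch, had log2 differences of -4.45 and -4.35 for *Camkv* and of -0.57 and -2.51 for *Camk2b*.

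**Figure D4:**
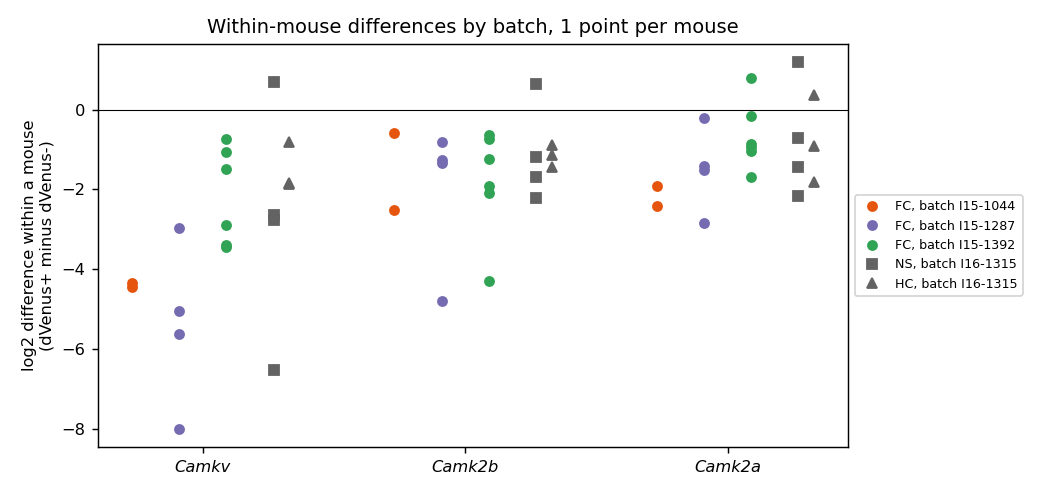
Log2 difference within a mouse, dVenus+ minus dVenus-, with 1 point per mouse, colored by batch and shaped by training. All 12 FC points of *Camkv* and *Camk2b* lie below 0, and the lowest *Camkv* point, at -7.99, is in batch I15-1287.

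In NS mice, which were exposed to the chamber without a shock, 0 of the 10 members were called by edgeR and 0% of the 8187 genes tested were. At an unadjusted p under 0.05 there were 384 genes (4.69%), 1 of them a member, and DESeq2 called 671 genes, 0 of them members. *Camkv* had 51.3, 14.3, 406 and 4.91 normalized CPM in the dVenus+ libraries of mice 18, 19, 20 and 21, and 352, 90.8, 251 and 470 in their dVenus- libraries. It was lower in dVenus+ cells in 3 of 4 mice, with mouse 20 the exception and overlapping ranges. Its log2 fold change was -2.79 ± 1.19 (SE, n = 4, unadjusted p = 0.0292 and adjusted p = 0.991 by edgeR).

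*Camk2b* in NS mice 18 to 21 had 175, 408, 1081 and 264 CPM in dVenus+ and 807, 933, 692 and 856 in dVenus- libraries. *Camk2a* had 942, 455, 837 and 361 CPM in dVenus+ and 1548, 1236, 367 and 1607 in dVenus- libraries. In mouse 20 both subunits were higher in dVenus+ cells, as were 8 of the 10 members, while in mouse 18 only 2 of the 10 were. The log2 fold changes were -1.16 ± 0.66 for *Camk2b* and -0.84 ± 0.64 for *Camk2a* (SE, n = 4, edgeR adjusted p of 1 for both). *Camk2d* was higher in dVenus+ cells in 3 of 4 NS mice, with a log2 fold change of 1.92 ± 2.51. In mice 18 to 21 it had 36.2, 99.8, 6.05 and 16.6 CPM in dVenus+ and 109, 88.8, 0.555 and 0.0800 in dVenus- libraries. *Camk1d* was higher in dVenus+ cells in 4 of 4 NS mice, with 78.2, 99.8, 110 and 83.2 CPM against 15.4, 51.1, 85.2 and 40.7 (edgeR adjusted p = 1), and 9.5% of all genes tested were higher in each of the 4 mice.

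In HC mice edgeR called 0 of the 10 members and 0.0264% of the 7588 genes tested (2 genes). At an unadjusted p under 0.05 there was 1 member, *Camk2g*, among 297 genes (3.91%), and DESeq2 called 1 member, *Camk1*, among 625 genes. *Camk2b* had 303, 298 and 591 CPM in the dVenus+ libraries of mice 15, 16 and 17 and 826, 649 and 1101 in their dVenus- libraries, so the ranges did not overlap. The ranges of *Camk2g*, given below, did not overlap in this direction either, as for 5.92% of the genes tested. *Camkv* had 121, 89.7 and 394 against 438, 320 and 686, lower in 3 of 3 mice, a pattern shown by 12.3% of the genes tested.

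The log2 fold changes in HC mice were -1.31 ± 0.80 for *Camk2b* and -1.65 ± 0.97 for *Camkv* (SE, n = 3, edgeR adjusted p = 0.984 for both). *Camk2g* had 25.8, 0.465 and 138 CPM in dVenus+ and 167, 169 and 397 in dVenus- libraries, with a log2 fold change of -3.69 ± 1.72 (unadjusted p = 0.0421, adjusted p = 0.984 by edgeR). *Camk4* was higher in dVenus+ cells in 3 of 3 HC mice, with 60.9, 40.4 and 63.6 CPM against 3.63, 30.0 and 23.3, a pattern of 17.5% of the genes tested. *Camk2d* had the same pattern, with 8.78, 214 and 24.8 CPM against 0.593, 3.43 and 6.33. For *Camk4* and *Camk2d* the ranges of the cell types did not overlap either, a stricter pattern whose share over all genes is not given. The log2 fold change of *Camk2d* was 3.76 ± 2.87 (edgeR adjusted p = 0.984).

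With the 7 NS and HC mice in 1 fit, edgeR called 0 members and 0.0266% of the 7529 genes tested, 707 of which had an unadjusted p under 0.05. Of the members 4 were below that unadjusted value, all lower in dVenus+ cells, as were 5.37% of all genes tested. These were *Camk2b* at -1.41 ± 0.43, *Camkv* at -2.34 ± 0.75, *Camk2g* at -2.50 ± 0.89 and *Camk2a* at -1.05 ± 0.47 (log2 fold change and SE, n = 7), with edgeR adjusted p of 0.336, 0.375, 0.423 and 0.513. DESeq2 called 1065 of the 7529 genes in this comparison, 4 of them members: *Camkv*, *Camk2g*, *Camk2d* and *Camk1*. By edgeR *Camk2d* was higher in dVenus+ cells, at 2.74 ± 1.69 (adjusted p = 0.646).

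Whether the within-mouse change itself differed with training was tested as an interaction over all 38 libraries and 14075 genes. Since no FC mouse shares a batch with an NS or HC mouse, training and batch cannot be told apart in this test either. EdgeR called 0 members and 0% of genes for FC against NS, for FC against HC and for FC against both together, with 763 (5.42%), 892 (6.34%) and 1052 (7.47%) genes at an unadjusted p under 0.05, and DESeq2 called 1205, 1586 and 1576 genes. For *Camkv* the FC change was lower than that of NS and HC mice together by a log2 difference of -1.46 ± 0.98, for *Camk2b* by -0.60 ± 0.57 and for *Camk2a* by -0.38 ± 0.52 (SE, edgeR adjusted p of 0.729, 0.806 and 0.875). The median over all genes was -0.76 in that contrast. *Camk2g* had the smallest p among members, at 2.78 ± 1.26 for FC against HC (unadjusted p = 0.0362, edgeR adjusted p = 0.770), and it was the 1 member that DESeq2 called there. However, the dVenus+ library of HC mouse 16 held 1 read of *Camk2g*. Without that mouse the HC log2 fold change of *Camk2g* was -2.25 ± 1.39 in place of -3.69 ± 1.72. The calls of *Camkv* and *Camk2b* in FC mice were thus not shown to differ from the other groups.

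Of 80 further genes of calcium/calmodulin signaling, in lists of calmodulin and its buffers, CaMKII inhibitors and phosphatases, calcineurin, related kinases, synaptic partners, nuclear targets and CaMKK targets, 69 were tested in FC mice and 0 were called by edgeR in either direction. In NS, HC and both together 65, 59 and 61 were tested and 0 called. Across the lists in FC mice, 17 genes were lower and 0 higher at an unadjusted p under 0.05, beside 8.58% of all genes tested that were lower at that value.

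Of the 7 genes of calmodulin and its buffers 5 were below 0 in FC mice, with a median log2 fold change of -0.71. *Calm3* and *Calm2*, which both encode the identical calmodulin protein, had log2 fold changes of -0.93 ± 0.29 and -0.76 ± 0.26 (SE, n = 12, edgeR adjusted p of 0.120 and 0.164). *Pcp4*, a small protein that modulates calmodulin's calcium binding, had -0.71 ± 0.32. *Calm2* also had an unadjusted p under 0.05 in both NS and HC mice, at -1.44 and -1.65.

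Among the 9 CaMKII inhibitors and phosphatases, *Camk2n1*, an endogenous inhibitor of CaMKII, had medians of 118 CPM in FC dVenus+ and 388 in FC dVenus- libraries and a log2 fold change of -1.40 ± 0.43 (edgeR adjusted p = 0.115). *Ppp1r1a*, an inhibitor of protein phosphatase 1, and *Ppm1e*, a CaMK phosphatase, had 0.55 ± 0.43 and 0.93 ± 0.81. In the calcineurin list, the catalytic subunit genes *Ppp3ca* and *Ppp3cb* had -0.73 ± 0.25 and -0.77 ± 0.40, and *Cabin1*, a calcineurin-binding protein, had -1.43 ± 0.93.

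The related kinases had the lowest list median, -2.05 over the 9 of 15 genes tested in FC mice. *Pnck*, a CaMKI family kinase, had a median of 28.8 CPM in FC dVenus+ and 176 in FC dVenus- libraries and a log2 fold change of -3.65 ± 0.96, with an edgeR adjusted p of 0.0649. *Dclk3*, a doublecortin-like kinase, had medians of 0.0879 and 36.4 CPM, was lower in 11 of 12 mice, and had an edgeR adjusted p of 0.0601. *Dapk1*, a calmodulin-regulated death-associated kinase, had -2.05 ± 0.67. In NS and HC mice *Pnck* had -4.27 ± 1.83 and -2.27 ± 1.36, and *Dapk1* -1.17 ± 1.74 and -1.90 ± 2.17. *Dclk3* had -8.14 ± 4.44 in NS mice, while in HC mice it was not tested and was higher in dVenus+ cells in all 3.

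Among the synaptic partners 14 of 15 genes tested were below 0 in FC mice, with a median log2 fold change of -0.62. In NS mice 6 of 15 were below 0, with a median of 0.42, and in HC mice 8 of 13, with a median of -0.71. In FC mice the AMPA receptor subunit genes *Gria2* and *Gria1* had -0.85 ± 0.29 and -0.71 ± 0.25 (edgeR adjusted p of 0.172 and 0.178). *Syn1*, a synaptic vesicle protein phosphorylated by CaMKII, had -0.99 ± 0.42 there. In NS and HC mice *Syn1* had -2.04 ± 0.95 and -2.73 ± 1.26. *Gria2* had 0.42 ± 0.62 and -0.62 ± 0.81 in these groups, and *Gria1* -0.04 ± 0.67 and -0.71 ± 0.87. The list median of the nuclear targets was -0.62 in FC mice, whereas NS mice gave 0.78 and HC mice 1.12, beside -0.21, 0.20 and 0.11 over all genes tested. In the interaction of FC against NS and HC together, list medians were -0.71 (synaptic partners) and -1.11 (nuclear targets), beside -0.76 over all genes. EdgeR called 0 genes of either list there. In FC mice the CREB coactivator gene *Crtc1* had -0.99 ± 0.36, and the transcription factor genes *Mef2d* and *Mef2a* had -2.59 ± 1.40 and -0.87 ± 0.70. Of the CaMKK targets, *Prkag2*, a regulatory subunit of AMPK, had -2.69 ± 0.79, and the kinase gene *Akt1* had -1.98 ± 0.76, each lower in 11 of 12 FC mice with edgeR adjusted p of 0.101 and 0.234.

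Over the 19 mice, the within-mouse log2 differences of *Camk2a* were most like those of *Mgat5b*, *Gm996*, *Ttpal*, *Zfp329* and *Caln1* among 8884 genes, with Pearson's r from 0.73 to 0.80. Those of *Camk2b* were most like those of *Mrps16*, *Rbm15*, *Caly*, *Ralgps1* and *Zbtb20*, with r from 0.75 to 0.83. These values describe the same libraries, share depth and batch, and were the highest of many. Only 2 of the 5 genes for *Camk2a* and 1 of the 5 for *Camk2b* stayed among the top 5 by Spearman's rho. *Camk2a* and *Camk2b* themselves had r = 0.33 and rho = 0.35, which became r = 0.61 without the 2 mice farthest from the median of *Camk2a*.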

How the data were processed

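RNA of pools of 10 granule cells was sequenced in 38 libraries (Smart-seq2, Nextera XT, no molecular identifiers). The deposited values are raw counts: the authors aligned single reads to mm10 with TopHat2 2.0.13 and counted uniquely aligned reads on NCBI transcripts with HTSeq 0.6.0. The 5 entries that name no gene were left out. Libraries were assigned by titles and characteristics, because in 10 libraries of NS or HC mice the description disagrees with them. The 2 libraries of a mouse come from 1 animal, so the mouse was kept as a block. Their deviations from group means correlated with medians of 0.0387 (FC), -0.0168 (NS) and 0.0303 (HC).

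Fold changes were tested two-sided with edgeR 4.0.16 (R 4.3.3; TMM, estimateDisp, glmQLFit and glmQLFTest at their defaults) per training group, after a filter of 10 or more counts in a number of libraries equal to the mice (3 for interactions), and called at a Benjamini-Hochberg adjusted p under 0.05 and an absolute log2 fold change over 1. SEs follow from the F statistic. CPM were scaled by TMM over all libraries. Log2 differences within mice used a prior count of 2. Exon lengths, used for levels per kilobase, are from GENCODE M21 transcripts linked to RefSeq. The fits were tested on simulated counts. These were drawn at the estimated dispersions and without differences between mice, so that test does not cover such differences. Alternatives were DESeq2 1.42.0, its size factors, other count filters, no block, single batches and leaving out each mouse. After the members' results had been seen, 3 further settings of edgeR were tried, the newer quasi-likelihood method (legacy = FALSE), robust estimation and dispersions without the design, and FC mice 04 and 07 were left out. The defaults were kept as the main test because no option had been named when the tests were set, although the newer method makes more calls. An earlier analysis of these data gave counts of calls within groups that match the newer method.

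The rule for the members goes by symbol alone, but the members and lists were chosen with earlier results of these data known. Named genes are the 10 members, each called gene of 7 pathway lists and the 3 of each list with the smallest p in FC mice, and the 5 genes most like *Camk2a* and *Camk2b*. The values of 1 gene that this rule names are not reported here. A deposited table of part of the genes was not used. Marker lists of granule cells, young granule cells, CA pyramidal and mossy cells, interneurons, astrocytes, oligodendrocytes, microglia, endothelium and nuclear-retained RNAs were summed per library without a test.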

Additional observations from a re-analysis of the deposited data

Results flagged for a closer look

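In NS mice the *Camkv* level of the dVenus+ library of mouse 20, 406 CPM, stood far above the other 3 libraries of its group (4.91, 14.3 and 51.3 CPM), by a gap of 0.884 of the whole range. It was 1 flag among 30 groups of 4 values examined. The rule is meant to flag about 1 in 20 such groups by chance, but its rate for CPM values as uneven as these was not tested.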

How the results depend on the processing

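In FC mice, where 2 members were called, DESeq2 called 5 (*Camk2d* and *Camkk2* besides *Camk2a*, *Camk2b* and *Camkv*), beside 1651 of the 9709 genes tested. Each of the batches I15-1287 and I15-1392 alone gave 0 members. Leaving out 1 mouse gave between 1 and 3, with 1 (*Camkv*) without mouse 03 or 12. The counts were 3 without a count filter, with the newer quasi-likelihood method and with robust estimation, each time with *Camk2a* added, and 2 with dispersions without the design or without mice 04 and 07. Over all genes the count of 137 became 422 with the newer method, 151 with robust estimation, 132 with dispersions without the design, 1651 with DESeq2, and between 56 (without mouse 03) and 118 when 1 mouse was left out. In NS and HC mice together the 2 calls among 7529 genes tested became 57 with the newer method and 1065 with DESeq2. DESeq2 also called 1 member in HC mice, 4 in NS and HC together, and 1 in the interaction of FC against HC, where edgeR called 0. Without the mouse as block, the pairing being dropped, FC mice still gave 2 members and the other groups 0. The causes were not tested.

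Directions turned only for members that were not called. In FC mice, *Camk1* became 3.29 in batch I15-1392 alone, 0.54 without mice 04 and 07 and 0.058 without the block, and *Camk1d* became 1.00 in batch I15-1287 alone and ran from -0.43 to 0.0066 when 1 mouse was left out. In NS mice, without the block, *Camk2d* was -0.38, *Camk4* -0.64 and *Camkk1* -0.53, and *Camk4* was -0.00087 with at least 20 counts. Leaving out 1 NS mouse gave -0.63 to 0.85 for *Camk4*, -0.30 to 0.72 for *Camkk1* and -7.41 to 0.14 for *Camk1*. In HC mice, leaving out 1 mouse gave -9.65 to 1.86 for *Camk1* and -3.21 to 0.47 for *Camk1d*. In NS and HC together without the block, *Camk4* was -0.10 and *Camk1d* -0.41. In the interactions, *Camkk1* (FC against HC) was 0.15 with DESeq2 and 0.15 with its size factors, *Camkk2* (FC against both) 0.092 and 0.089, and *Camk2d* (FC against both) -0.71 with the newer method.

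With 4 NS and 3 HC mice the counts of 0 set no limit on the change there: SEs of *Camk2b* were 0.66 and 0.80, beside 0.37 in FC mice. Counting without molecular identifiers leaves amplification in the spread between libraries.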

Other observations

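The summed levels of the marker lists not given above were as follows, as medians in FC dVenus+ and FC dVenus- libraries. Young granule cell markers had 84.3 and 221 CPM, CA pyramidal and mossy cell markers 13.1 and 33.6, and interneuron markers 55.4 and 139. Astrocyte markers had 259 and 499 CPM, oligodendrocyte markers 497 and 546, and endothelial markers 0 and 0. In NS and HC mice the astrocyte markers had medians of 1574 and 1691 CPM in dVenus+ and 1296 and 594 in dVenus- libraries, and the granule cell markers 412 and 552 against 1336 and 1246. In all 3 groups the summed level of the granule cell markers, and the levels of *Camkv* and *Camk2b*, had lower medians in dVenus+ than in dVenus- libraries. Taken singly, the granule cell markers *C1ql3* (36.1 against 32.8 CPM) and *Lrrtm4* (72.9 against 29.5) had higher medians in dVenus+ libraries of NS mice. *Tdo2* had medians of 0 in both cell types of NS and HC mice. All other medians of single granule cell markers in NS and HC mice were lower in dVenus+ libraries. The part of cell composition in *Camkv* and *Camk2b* was not tested.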
